A study of Mus musculus with 6 samples.

Results

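The genes described here are the folding machinery of the endoplasmic reticulum (ER) and the unfolded protein response (UPR) that controls it. They were 33 genes chosen by symbol with earlier results of these data known, so counts of them are descriptions. All 33 were found among the 24972 rows of the gene table. RNA was sequenced from mouse bone marrow-derived macrophages (BMDM), primary cells matured from marrow monocytes in medium with L929 cell supernatant, which supplies macrophage colony-stimulating factor. One set came from Lcn10-knockout mice, which lack *Lcn10*, a gene for a secreted lipocalin (Lcn10-KO, 3 libraries), and was set against wild-type cells (WT, 3 libraries). Cells of both genotypes were left untreated, and the labels used here give no strain, sex, age or design of the knockout allele, nor say whether replicates were separate mice. The p-values thus rest on library-to-library spread, possibly technical in origin, with each gene's variance drawn towards a trend over all genes.

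Proteins bound for the surface, the secretory pathway or the lysosome enter the ER through the Sec61 channel, where chaperones of the HSP70 and HSP90 families, lectin chaperones and disulfide isomerases fold them. Misfolded chains are sent back to the cytosol and degraded. Sensors in the ER membrane, ATF6, IRE1 (*Ern1*) and PERK (*Eif2ak3*), respond to unfolded protein, and ATF6 and XBP1 then drive the chaperone genes through DNA elements in their promoters. Macrophages use this system to supply lysosomal enzymes, surface receptors and secreted proteins.

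Several genes of the chaperone machinery fell slightly in Lcn10-KO macrophages, among them those for BiP, calreticulin and the sensor ATF6. Of the 33 genes, 32 passed the filter on low values, and 10 of these (31.2%) fell in Lcn10-KO by limma at an adjusted p under 0.05, against 5.14% of all 12091 genes tested (9.84% in either direction). No member rose (0 of 32, by limma), against 4.7% of all genes tested. At an unadjusted p under 0.05 by limma, 18 members were lower (against 13.9% of all genes) and 0 higher. The 10 were *Hspa5*, *Hyou1*, *Dnajb11*, *Dnajc3*, *Sdf2l1*, *Creld2*, *Calr*, *Pdia4*, *Ero1l* and *Atf6*. The changes were small, with mean levels in Lcn10-KO differing from WT by −9.81% in *Dnajc3* to −23.1% in *Hyou1*. Among these 10, *Pdia4* alone shares exon bases with another annotated gene (14 bases, *Mir704*). The median log2 fold change, Lcn10-KO minus WT, was −0.11 over the 32 tested members and −0.0011 over all tested genes. It was negative in 27 members and positive in 5, with a range from −0.37 to 0.08. All 3 Lcn10-KO values lay below all 3 WT values in 19 of the 32 members (59.4%), against 16.9% of all tested genes, and above them in 0 members, against 15.5%. As the members were chosen with earlier results known, the choice itself may have raised these shares, and the group was not tested.

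The count of 10 depended on the libraries and on the model. Leaving out 1 library gave 3 for Lcn10-KO replicate 1, 0 for replicate 2 and 0 for replicate 3 of the same genotype. For WT it gave 5 without replicate 1, 12 without replicate 2 and 5 without replicate 3. The calls over all genes moved as well, from 1190 with all 6 libraries. They were 566, 207 and 175 without Lcn10-KO replicates 1, 2 and 3, and 1154, 1664 and 887 without WT replicates 1, 2 and 3. In the fits without Lcn10-KO replicate 2 and without replicate 3, 15 and 16 members were lower at an unadjusted p under 0.05, against 9.86% and 11.4% of all tested genes. Limma without a mean-variance trend called 0 members (15 at an unadjusted p under 0.05, against 11.4% of all genes), and 14 genes in the whole table.

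Many of these genes carry the ER stress response element (ERSE) in front of their start site, the sequence through which ATF6 and XBP1 act together with the CCAAT-binding factor NF-Y. The promoter windows, 250 bases before to 50 bases after the start, came from RefSeq on GRCm38.p6 and were found for 28 members. Of these, *Derl2* had 2 windows, *Txndc5* had 3 and the others had 1. A gene was counted once if any of its windows matched. No window was matched for *Hyou1*, *Manf*, *Derl1*, *Sec61a1* and *Atf6*. An exact ERSE, here CCAAT and CCACG with 9 bases of any kind between them, on either strand, was present in 10 of the 28 (35.7%), against 37 of 27025 genes with a window (0.137%). With at most 1 of the 10 fixed letters different, it was in 15 of 28 members (53.6%) and 466 of 27025 genes (1.72%). The shorter ERSE-II, ATTGG and CCACG with 1 base of any kind between them, was in *Herpud1* and *Dnajb11* (2 of 28, 7.14%), against 0.0444% of all genes. The core of the XBP1 element, TGACGTGG, was in 1 member, *Txndc5* (3.57% against 0.714%). The element of ATF4 and its partners, TGATGNAA, was in *Herpud1* and *Txndc5* (7.14% against 4.51%). In *Txndc5* it lay in a different window from TGACGTGG. No matches of different elements overlapped in these windows. The matches are shown as a description of the DNA. The members were chosen by name as genes of this response, so these shares are not independent of that choice. Each is written 5′ to 3′ in the direction of the motif, with its fixed letters in capitals.
Calr ERSE: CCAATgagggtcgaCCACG
Canx ERSE: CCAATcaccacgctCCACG
Creld2 ERSE: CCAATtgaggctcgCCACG
Derl3 ERSE: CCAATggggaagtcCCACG
Dnajc3 ERSE: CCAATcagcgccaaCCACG
Ero1lb ERSE: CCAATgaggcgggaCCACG
Hsp90b1 ERSE: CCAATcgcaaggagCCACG
Hsp90b1 ERSE: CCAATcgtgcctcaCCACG
Hspa5 ERSE: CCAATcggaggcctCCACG
Pdia6 ERSE: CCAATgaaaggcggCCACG
Syvn1 ERSE: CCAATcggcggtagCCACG
Dnajb11 ERSE-II: ATTGGcCCACG
Herpud1 ERSE-II: ATTGGgCCACG

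The ERSE lay between 212 and 26 bases before the start in all 10 genes, and *Hsp90b1* held a pair of them. The promoters of *Hspa5*, *Calr* and *Hsp90b1*, which code for the ER chaperones with the highest levels per kilobase, are given whole, with the ERSE letters in capitals. They are the 250 bases before the start, on the strand of the gene, at chr2:34771840-34772089 (plus strand), chr8:84846932-84847181 (minus strand) and chr10:86705445-86705694 (minus strand) of GRCm38.p6. In *Calr*, and in the second element of *Hsp90b1*, the element runs against the gene and reads CGTGG first and ATTGG last.
Hspa5 promoter: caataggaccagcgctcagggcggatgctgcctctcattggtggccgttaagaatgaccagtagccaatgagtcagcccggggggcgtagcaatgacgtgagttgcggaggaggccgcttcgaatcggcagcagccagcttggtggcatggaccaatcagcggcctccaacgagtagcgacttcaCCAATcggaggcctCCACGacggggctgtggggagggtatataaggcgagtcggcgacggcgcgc
Calr promoter: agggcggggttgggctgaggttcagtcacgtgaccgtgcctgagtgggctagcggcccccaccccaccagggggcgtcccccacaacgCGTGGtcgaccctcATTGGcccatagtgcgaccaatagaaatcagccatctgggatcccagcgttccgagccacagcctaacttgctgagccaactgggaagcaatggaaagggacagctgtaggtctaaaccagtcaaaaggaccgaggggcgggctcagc
Hsp90b1 promoter: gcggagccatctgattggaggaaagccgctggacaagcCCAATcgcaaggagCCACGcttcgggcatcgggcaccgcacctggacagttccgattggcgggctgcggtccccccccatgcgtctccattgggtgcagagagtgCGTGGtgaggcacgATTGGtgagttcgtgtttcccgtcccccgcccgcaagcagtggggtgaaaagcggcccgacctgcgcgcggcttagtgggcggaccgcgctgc

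**Figure D1:**
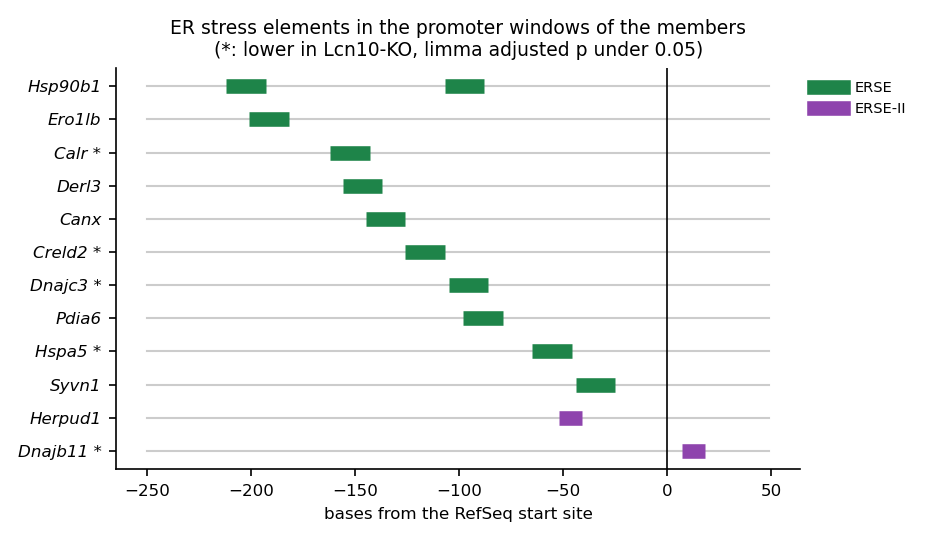
Position of each exact ERSE (green) and ERSE-II (purple) in the promoter windows of the 12 members that hold one, in bases from the RefSeq start site (vertical line). Asterisks mark the 5 of these genes that fell in Lcn10-KO (limma adjusted p under 0.05), and the ERSE-II of *Dnajb11* is the one block that lies after the start.

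Members fell both with and without an exact ERSE. Of those that fell without one, *Dnajb11* holds an ERSE-II and *Pdia4* an ERSE with 1 letter different. *Hyou1* and *Atf6*, which also fell, had no window. Of the 9 tested members with an exact ERSE, 4 fell (44.4%, against 5.14% of all genes tested), with a median log2 fold change of −0.11. They were *Hspa5*, *Calr*, *Creld2* and *Dnajc3*. Of the 18 with a window and no exact ERSE, 4 fell (22.2%), with a median of −0.04. With at most 1 letter different, 5 of the 14 tested members with a match fell (35.7%, median −0.105). Of the 13 with a window and no such match, 3 fell (23.1%, median −0.046). The differences between these groups were not tested. Outside the 33 genes, 21 genes of the table held an exact ERSE and 6 of them were tested. By limma 0 of the 6 fell and 1 rose, against 5.14% and 4.7% of all genes tested. A fall in 0 of 6 is near that background. At an unadjusted p under 0.05 by limma, 0 of the 6 were lower, against 13.9% of all genes. The median was −0.08. The 1 that rose, named after its values were seen, was *Adcy3*, an adenylyl cyclase (log2 fold change 0.56 ± 0.09 (SE), adjusted p = 0.0048).

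Levels between genes were compared as normalized counts per kilobase of the longest principal transcript. *Calr* was highest, at 8352 in Lcn10-KO and 9697 in WT, followed by *Hsp90b1* (6099 and 6478) and *Hspa5* (4799 and 5447). *Ppib* (4381 and 4297) and *Pdia3* (4052 and 4393) came next, and these 2 changed places between the genotypes. At the low end stood the sensors *Eif2ak3* (206 and 203) and *Ern1* (112 and 110.0). *Derl3*, a retrotranslocation factor with an ERSE of its own, was nearly silent, at 4.99, 3.61 and 9.76 normalized counts in Lcn10-KO libraries and 2.9, 2.68 and 2.81 in WT libraries, and was not tested. Together the 33 genes took 0.744% ± 0.0063 of all normalized counts in Lcn10-KO and 0.813% ± 0.0078 in WT (mean ± SD, n = 3 each), and the libraries of the genotypes did not overlap (0.737% to 0.749% in Lcn10-KO, 0.808% to 0.822% in WT). The highest genes weigh most in these sums, and *Calr* and *Hspa5*, both among the genes that fell, had the highest WT means. No background for such sums was taken. In RNA of whole cultures, fewer cells of a kind and less RNA per cell cannot be told apart.

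**Figure D2:**
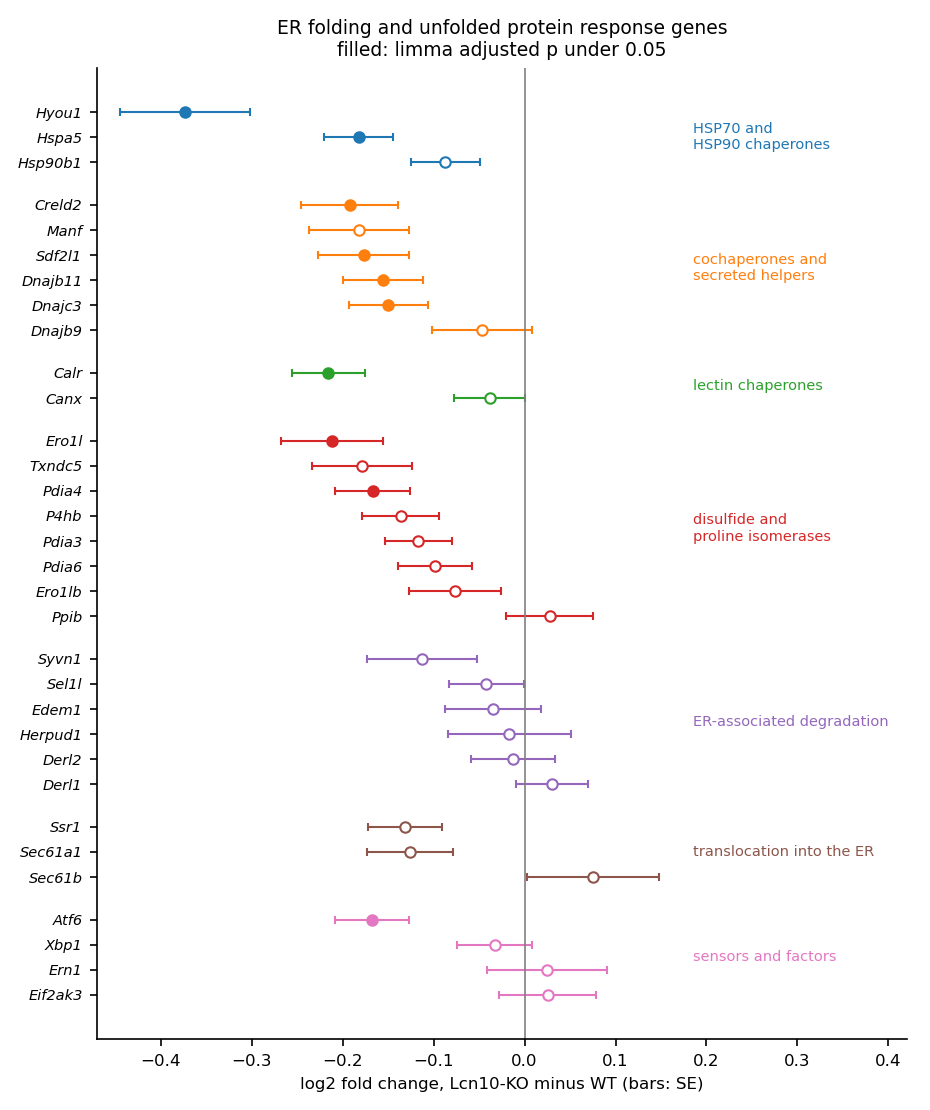
Log2 fold change, Lcn10-KO minus WT, with its SE for the 32 tested members, grouped by role. The 10 filled points passed the limma threshold, all to the left of 0, and the ER-associated degradation genes have no filled point.

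Among the chaperones of the HSP70 and HSP90 families, 2 of 3 fell (66.7%, against 5.14% of all genes tested). *Hspa5* (ENSMUSG00000026864.13, chr2:34771970-34777547 on the plus strand of GRCm38) codes for BiP, the main HSP70 of the ER, which also holds the sensors in check. It had 17793, 17615 and 17456 normalized counts in the Lcn10-KO libraries, against 19547, 19967 and 20489 in the WT libraries. The groups did not overlap, and the log2 fold change was −0.18 ± 0.04 (SE, limma adjusted p = 0.0139). *Hyou1* (ENSMUSG00000032115.14, chr9:44379490-44392369, plus strand), which codes for a large HSP70 relative that exchanges the nucleotide of BiP, showed the biggest fall of the 10. Its values were 2596, 2363 and 2454 in Lcn10-KO and 3609, 3069.9 and 2955 in WT. WT replicate 1 was well above the other WT libraries, yet all WT values exceeded all Lcn10-KO values (−0.37 ± 0.07, adjusted p = 0.0136). Without WT replicate 1 its log2 fold change was −0.29 and it stayed past the threshold. *Hsp90b1*, which codes for the ER form of HSP90 that folds Toll-like receptors and integrins, had 17236, 16946 and 17504 in Lcn10-KO and 18255, 18001 and 18647 in WT. Its groups were separate as well, but the log2 fold change of −0.09 ± 0.04 did not pass (adjusted p = 0.168).

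Of the 6 cochaperones and helpers, 4 fell (66.7%, against 5.14% of all genes tested), and all 6 had negative log2 fold changes. The 4 calls lay near the threshold. None of the 4 passed with no filter on low values or without the mean-variance trend. Nor did any pass without WT replicate 1, without WT replicate 3 or with any 1 Lcn10-KO library left out. *Creld2* (ENSMUSG00000023272.4, chr15:88819646-88826683, plus strand), a secreted ER stress protein, had 666, 643 and 661 normalized counts in Lcn10-KO libraries against 756, 742 and 754 in WT libraries. The spread within each genotype was a small part of the gap, and the log2 fold change was −0.19 ± 0.05 (limma adjusted p = 0.0403). *Sdf2l1* (ENSMUSG00000022769.9, chr16:17130138-17132383, minus strand), a partner of BiP and its DnaJ proteins, had 1657, 1627 and 1588 in Lcn10-KO and 1909, 1723 and 1882 in WT (−0.18 ± 0.05, adjusted p = 0.0442). *Dnajb11* (ERdj3, ENSMUSG00000004460.17, chr16:22857845-22879634, plus strand), a DnaJ cochaperone that delivers substrates to BiP, had 2778, 2775 and 2838 in Lcn10-KO and 3261, 3015 and 3076 in WT (−0.16 ± 0.04, adjusted p = 0.0422). *Dnajc3* (ENSMUSG00000022136.8, chr14:118937976-118981697, plus strand), the DnaJ protein p58IPK, was nearest to the threshold among the genes that fell. It had 2664, 2667 and 2856 in Lcn10-KO, with replicate 3 above the other Lcn10-KO libraries, and 3059, 3007 and 3012 in WT (−0.15 ± 0.04, adjusted p = 0.0479). *Manf*, a secreted regulator of BiP, did not pass despite a change of like size (−0.18 ± 0.05, adjusted p = 0.0534), and its exons overlap those of 3 other genes. *Dnajb9* (ERdj4), the DnaJ protein that restrains IRE1, overlapped between the genotypes, at 885 to 929 in Lcn10-KO and 893 to 979 in WT (−0.05 ± 0.05, adjusted p = 0.644).

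The 2 lectin chaperones hold newly made glycoproteins through their sugar chains, calreticulin (*Calr*) in the lumen and calnexin (*Canx*) in the membrane. *Calr* (ENSMUSG00000003814.8, chr8:84841850-84846934, minus strand) had 18847, 17913 and 17961 normalized counts in Lcn10-KO libraries, against 21654, 21132 and 20747 in WT libraries. It had the lowest adjusted p of the 32 tested members, with a log2 fold change of −0.22 ± 0.04 (limma adjusted p = 0.00831). *Canx* had 12635, 12668 and 12954 in Lcn10-KO and 13447, 13131 and 12723 in WT. The genotypes overlapped, and the log2 fold change of −0.04 ± 0.04 did not pass (adjusted p = 0.585).

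**Figure D3:**
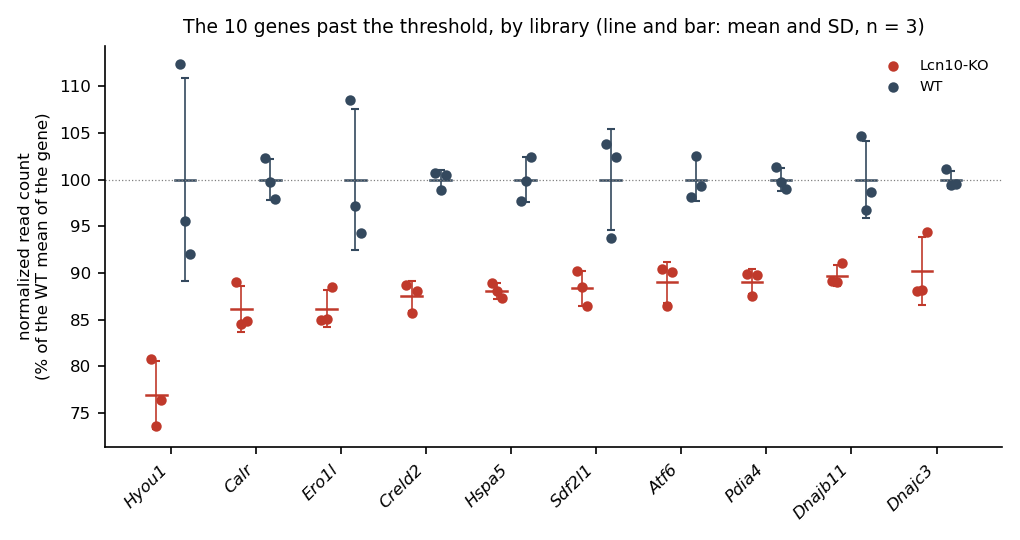
Normalized counts of the 10 genes past the threshold in each library (points), as a percentage of the WT mean of that gene, with the mean and SD of 3 libraries. Lcn10-KO points lie below the WT points of the same gene in all 10, and the widest WT spread is that of *Hyou1*.

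Disulfide bonds are made by the isomerases of the PDI family, which the oxidases ERO1 recharge. Of the 8 genes of this group, which includes the proline isomerase *Ppib*, 2 fell (25%, against 5.14% of all genes tested) and 7 had Lcn10-KO values all below the WT values (87.5%, against 16.9%). *Ero1l* (ENSMUSG00000021831.9, chr14:45283087-45318771, minus strand), the widely expressed oxidase ERO1 alpha, had 1393, 1395 and 1450.2 normalized counts in Lcn10-KO and 1778, 1593 and 1545 in WT. WT replicate 1 was again the highest, and the log2 fold change was −0.21 ± 0.06 (limma adjusted p = 0.0343), against −0.15 without that library (adjusted p = 0.055). *Pdia4* (ERp72, ENSMUSG00000025823.9, chr6:47796141-47813430, minus strand) had 2229, 2169 and 2226 in Lcn10-KO and 2513, 2472 and 2453 in WT, with little spread in either genotype (−0.17 ± 0.04, adjusted p = 0.026). The isomerases *P4hb* (PDI itself), *Pdia3* (ERp57, which works with calreticulin and calnexin) and *Txndc5* (ERp46) had log2 fold changes of −0.14, −0.12 and −0.18 and adjusted p of 0.0604, 0.0646 and 0.0562, short of the threshold. *Pdia6* (P5) and *Ero1lb* (ERO1 beta) were at −0.10 and −0.08. *Ppib*, cyclophilin B, had 3977, 4033 and 3714 in Lcn10-KO and 3714, 3759 and 4027 in WT, with the genotypes mixed (0.03 ± 0.05, adjusted p = 0.766). Of the 892 bases of its transcript, 825 overlap *Snx22* on the opposite strand, so its own level is uncertain where counting did not use strand.

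The genes of ER-associated degradation code for proteins that pull misfolded chains out of the ER. By limma 0 of the 6 tested passed in either direction, against 9.84% of all genes tested. A count of 0 among 6 is near that background. At an unadjusted p under 0.05 by limma, 0 were lower (against 13.9% of all genes) and 0 higher. In 6 of 6 the genotypes overlapped, where 16.9% of all genes were separate downwards and 15.5% upwards, and the median log2 fold change was −0.03. *Herpud1*, a scaffold of the degradation complex whose window holds an ERSE-II, had 566, 629.6 and 599.6 normalized counts in Lcn10-KO and 563, 617 and 637 in WT. *Edem1*, which marks glycoproteins for removal, had 7986, 8177 and 8101 in Lcn10-KO and 7800.4, 9069 and 8039 in WT. In both genes the WT libraries spanned the Lcn10-KO range. The ubiquitin ligase *Syvn1* (HRD1) had a log2 fold change of −0.11 ± 0.06 and its partner *Sel1l* −0.04 ± 0.04, while *Derl1* and *Derl2*, which code for proteins of the exit channel, had 0.03 and −0.01. Whether these genes differ from the chaperones in their response was not tested.

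For entry into the ER, *Sec61a1*, the pore of the channel, and *Ssr1*, a subunit of the translocon-associated complex, had Lcn10-KO values all below WT without passing (log2 fold changes −0.13 ± 0.05 and −0.13 ± 0.04, limma adjusted p = 0.109 and 0.0573). *Sec61b*, the small beta subunit, had 1068, 932 and 908 normalized counts in Lcn10-KO and 905, 858 and 995 in WT, which overlap (0.08 ± 0.07, adjusted p = 0.565). Over 549 bases the exons of *Sec61a1* overlap an antisense gene.

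Of the 4 sensors and factors only *Atf6* passed, and it fell (25%, against 5.14% of all genes tested). It codes for the membrane-bound precursor of a transcription factor that is cut free in the Golgi and drives chaperone genes. *Atf6* (ENSMUSG00000026663.6, chr1:170704674-170867771, minus strand) had 4673, 4471 and 4659 normalized counts in Lcn10-KO and 5074, 5301 and 5132 in WT. All Lcn10-KO values lay below all WT values, and the log2 fold change was −0.17 ± 0.04 (limma adjusted p = 0.0252). *Xbp1*, the factor whose RNA is spliced by IRE1, had 2806, 2844 and 2817 in Lcn10-KO and 2795, 2944 and 2926 in WT, with WT replicate 1 below all Lcn10-KO libraries (−0.03 ± 0.04, adjusted p = 0.667). A value per gene does not separate its spliced from its unspliced form. *Ern1* (IRE1 alpha) had 734, 773 and 825 in Lcn10-KO and 815, 762 and 715 in WT. *Eif2ak3* (PERK) had 929, 922 and 943 in Lcn10-KO and 966, 893 and 886 in WT. The genotypes overlapped for both, with log2 fold changes of 0.02 ± 0.07 and 0.03 ± 0.05 (adjusted p = 0.856 and 0.812). Sensor activity is set at the level of the protein and was not measured.

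The libraries were compared by the mean log2 deviation of each role from the average of all 6. For the called genes this was −0.08, −0.12 and −0.09 in Lcn10-KO replicates 1 to 3 and 0.14, 0.08 and 0.08 in WT replicates 1 to 3. These genes were called on the difference between the genotypes in the same libraries, so this split was fixed by the choice. WT replicate 1 was the highest WT library in 8 of the 10 called genes, and Lcn10-KO replicate 2 the lowest Lcn10-KO library in 6 of 10. The genotypes were separate in all 4 chaperone and isomerase roles. Those roles hold all of the called genes except *Atf6*, and in the lectin role *Canx* by itself overlapped. The genotypes overlapped in degradation, translocation and the sensors. Without WT replicate 1 the median of the members was −0.09, and *Hspa5*, *Hyou1*, *Calr*, *Pdia4* and *Atf6* passed.

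**Figure D4:**
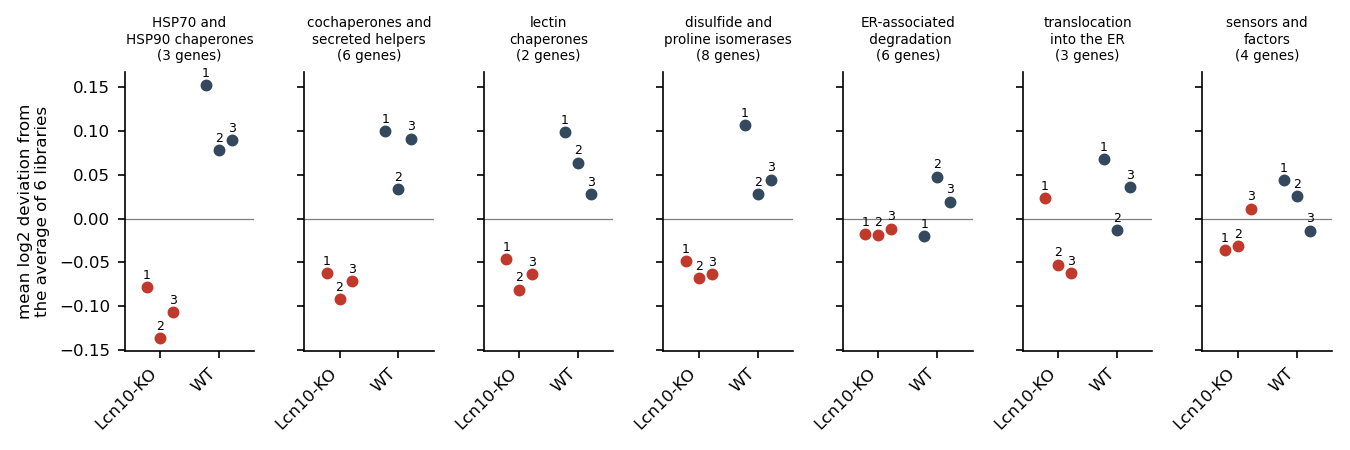
Mean log2 deviation of the tested members of each role from the average of the 6 libraries, with the replicate number at each point (Lcn10-KO red, WT dark). In the first 4 panels all Lcn10-KO points lie below 0 and all WT points above it, and in the last 3 the genotypes overlap.

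Beyond the 33, lists of other ER genes named 110 genes, of which 105 were in the table and tested. Of these, 6 fell (5.71%) and 2 rose, against 5.14% and 4.7% of all genes tested. All 3 Lcn10-KO values lay below all 3 WT values in 32 of the 105 (30.5%), against 16.9% of all genes tested, and above them in 12, against 15.5% of all genes. Log2 fold changes were negative in 67 and positive in 38, with a median of −0.03. With GC and length trends taken out, an alternative chosen after seeing the data, 11 fell.

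The list of the PERK-ATF4 branch, the arm of the response that slows translation and induces amino acid and stress genes, was split. Of 15 genes, 2 fell (13.3%, against 5.14% of all genes tested) and 1 rose (against 4.7%). The median log2 fold change was 0.04. *Asns*, asparagine synthetase and a target of ATF4, had 1813, 1808 and 1899 normalized counts in Lcn10-KO libraries and 2633, 2221 and 2267 in WT libraries (log2 fold change −0.36 ± 0.06, limma adjusted p = 0.00573). *Eif2s1*, the initiation factor that PERK phosphorylates, had 2849, 2734 and 2891 in Lcn10-KO and 3342, 3077 and 3141 in WT (−0.17 ± 0.05, adjusted p = 0.034). In the other direction, *Atf3*, a stress-induced transcription factor, had 4775, 5170.0 and 4864 in Lcn10-KO and 3795, 4379 and 4289.8 in WT (0.25 ± 0.06, adjusted p = 0.0186). Named after their values were seen, *Atf4*, *Ddit3* and *Chac1* did not pass. *Atf4*, the factor at the centre of this branch, overlapped between the genotypes (−0.02 ± 0.05, adjusted p = 0.794). *Ddit3* (CHOP), a death-linked target, and *Chac1*, a glutathione-degrading enzyme, had separate groups with log2 fold changes of opposite sign (0.23 ± 0.08 and −0.56 ± 0.19, adjusted p = 0.0857 and 0.0749).

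Of 30 other folding enzymes and glycoprotein trimming genes, 2 fell (6.67%, against 5.14% of all genes), and in 12 (40%, against 16.9%) all Lcn10-KO values lay below WT. They were *Mogs*, the glucosidase that starts the trimming of glycans (1104, 1139.6 and 1028 in Lcn10-KO, 1524, 1283 and 1343 in WT, −0.34 ± 0.07, limma adjusted p = 0.0107), and *Tmx4*, a membrane-bound PDI (−0.22 ± 0.05, adjusted p = 0.0217). Of 25 other genes of translocation, signal peptide removal and glycan transfer, 1 fell (4%, against 5.14% of all genes). It was *Rpn1*, a subunit of the oligosaccharyltransferase (5305, 5342 and 5229 in Lcn10-KO, 5957, 5677 and 5921 in WT, −0.14 ± 0.04, adjusted p = 0.0388). Of 20 other degradation genes, limma called 0, against 9.84% of all genes, with a median of −0.02. At an unadjusted p under 0.05 by limma, 1 of these was lower (against 13.9% of all genes) and 1 higher. Among 15 other signalling genes, 1 fell (6.67%, against 5.14% of all genes) and 1 rose (against 4.7%). *Map3k5*, the kinase ASK1 that acts downstream of IRE1, fell (576, 581 and 587 in Lcn10-KO, 809, 739 and 695 in WT, −0.36 ± 0.06, adjusted p = 0.00681). *Ptpn1*, the ER-anchored phosphatase PTP1B, rose (3379, 3435 and 3511 in Lcn10-KO, 2762, 3198 and 2850.0 in WT, 0.23 ± 0.05, adjusted p = 0.0206).

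**Figure D5:**
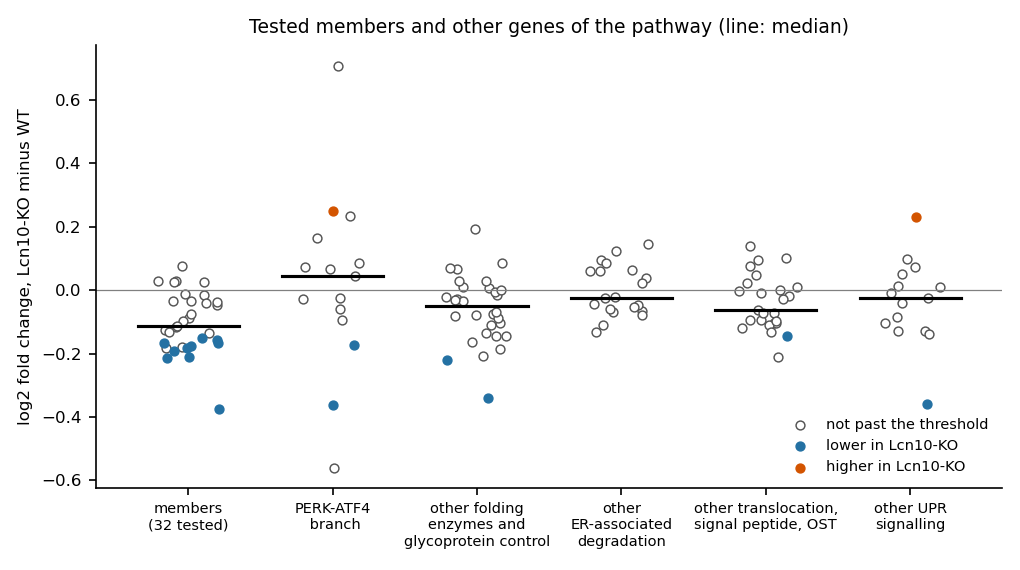
Log2 fold change, Lcn10-KO minus WT, of the 32 tested members and of 105 other ER and UPR genes in 5 lists, with each list's median as a line. The members have a median of −0.11, and the other lists range from −0.06 to 0.04.

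The value of *Lcn10* was 0 in all 6 libraries, so it cannot check the labels. Macrophage markers were high in both genotypes, with a summed level of 298311 to 312830 normalized counts in Lcn10-KO and 284718 to 295218 in WT, groups that do not overlap. The largest part of this sum was *Lyz2* (181584 to 193715 in Lcn10-KO, 165280 to 180316 in WT), which did not pass (limma adjusted p = 0.164). Of the 9 markers, 2 rose (*Adgre1* and *Mertk*) and 2 fell (*Csf1r* and *Cd14*), against 4.7% and 5.14% of all genes tested. The 8 markers of plasma and B cells, which are rich in ER chaperones, summed to 661 to 772 in Lcn10-KO and 611 to 657 in WT, with *Mzb1* and *Pou2af1* at 0 in all libraries. Nearly all of this sum was *Sdc1*, a surface proteoglycan that is not specific to these cells (655 to 758 in Lcn10-KO, 606 to 656 in WT), and the other 7 markers were at 8.42 or less in each library. *Sdc1* was the 1 marker tested and did not pass (limma adjusted p = 0.0827, unadjusted p = 0.0123). The 7 stromal markers summed to 3786 to 4270 in Lcn10-KO and 2882 to 4472 in WT, the 5 endothelial ones to 307 to 699 in Lcn10-KO and 318 to 440.0 in WT, and the 6 neutrophil ones to 254 to 287 in Lcn10-KO and 207 to 289 in WT, with *Ly6g* at 0. None of the markers tested in these 3 lists passed (limma, 0 at an unadjusted p under 0.05). Dendritic cell markers (4) summed to 5.13 to 11.3 in Lcn10-KO and 5.49 to 9.8 in WT, and the 3 T and NK cell markers found to 0 to 2.08 in Lcn10-KO and 0 in WT, too low to test. Among the endothelial markers Lcn10-KO replicate 2 was the highest library for *Pecam1* (161), *Cdh5* (165) and *Emcn* (121), with 24.5 to 93.7 in the other Lcn10-KO libraries and 27.2 to 80.5 in WT. It was also highest for *Tek* (14.0), which was too low to test. For *Kdr*, the endothelial marker with the highest mean level, WT replicate 1 was highest (280, against 238 in Lcn10-KO replicate 2). These markers were named after their values were seen. Lcn10-KO replicate 2 was also the lowest Lcn10-KO library in 6 of the 10 genes that fell. Without it 0 members passed, as was the case without Lcn10-KO replicate 3. Over all genes 207 and 175 passed in these fits, against 1190 with all 6 libraries. The median log2 fold change of the members was −0.1054 without Lcn10-KO replicate 2, against −0.1145 with all 6. The part of macrophage, *Sdc1* and endothelial marker levels in the chaperone result was not tested.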

How the data were processed

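RNA was sequenced in 3 Lcn10-KO and 3 WT libraries. What the authors deposited is a normalized signal per gene, called normalized counts here: not whole, never below 0, with totals of 20476700 to 20636300 per library. Build mm10 and DESeq2, Salmon 0.11.2, STAR 2.6.1a and bcl2fastq are named per the submitters' processing notes. Their roles, and the annotation, filters and strand setting, were not given in the sources used here. Of the values below 12, 90.1% to 92.2% were whole multiples of the value of 1 read within 0.1 reads, so reads could not be recovered and no count test was run. In these values 1 read was worth about 0.82 to 1.14 between libraries.

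A gene was tested if 3 or more libraries reached a value of 10, on log2(value + 1) with limma 3.58.1 (R 4.3.3), genotype as the only term, mean-variance trend, robust estimation and Benjamini-Hochberg adjustment over all tested genes. This scale understates changes of low genes. Lengths, positions and exon overlaps came from GENCODE M21 (GRCm38), matched for all 33 members. The members and gene lists were chosen with earlier results of these data known, so their counts are descriptions. Named genes are all members and, from each other list, up to 4 past the threshold by p. Others were chosen after their values were seen. Alternatives were quantile and median ratio scaling, other filters and pseudocounts, no trend, a replicate block, each library left out and, chosen after seeing the data, removal of trends on GC content and length.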

Additional observations from a re-analysis of the deposited data

How the results depend on the processing

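All 32 tested members were refitted under 15 alternatives. The number of members that fell was 10. It was 14 after removal of GC and length trends, 6 with no filter on low values, 0 without the mean-variance trend (limma, 15 at an unadjusted p under 0.05) and 0 to 12 with 1 library left out. No member rose under any of them. The median log2 fold change of the members was −0.088 to −0.138 with 1 library left out. Of the other ER and UPR genes, 6 fell. The number was 0 without the trend, 11 after removal of GC and length trends, and 2 to 10 with 1 library left out. The 2 that rose became 0 without the trend and 0 to 3 with 1 library left out. Over all genes, 1190 passed, 14 without the trend and 175 to 1664 with 1 library left out. Signs turned only in members near 0 that did not pass. *Ppib* was at −0.012 after removal of GC and length trends and *Derl2* at 0.0003 under quantile normalization. With 1 library left out *Herpud1* ranged from −0.069 to 0.023, *Edem1* from −0.078 to 0.030, *Derl2* from −0.030 to 0.018 and *Ern1* from −0.022 to 0.072. *Calr*, *Hspa5* and *Hyou1* passed in all alternatives except those without the trend, without Lcn10-KO replicate 2 or 3 and, for *Hspa5*, without Lcn10-KO replicate 1. *Dnajc3*, *Sdf2l1*, *Creld2* and *Dnajb11* lost their calls in 9, 8, 8 and 7 of the 15 alternatives. The labels link replicates of the 2 genotypes by number alone, and whether same-numbered libraries were handled together is not given. Deviations of same-numbered libraries correlated at 0.014 to 0.073 over tested genes, against −0.063 to 0.026 for other pairs. With a replicate block 11 members fell and 0 rose, and 1607 genes passed. Among the members *Derl3* alone was too low to test. Over the single genes, 495 refits kept the direction and side of the threshold, 85 lost and 12 gained a call.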
